A study of Mus musculus with 15 samples.

Results

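Duct cells of the pancreas were followed through 10 genes, chosen by symbol out of the 25292 genes of a read count table of embryonic mouse pancreas. The genes were Slc26a3, Slc26a6, Cftr, Slc4a4 and Car2, which act in bicarbonate transport, and Spp1, Muc1, Krt19, Krt7 and Bicc1, which are used as markers of ducts or their epithelium. All 10 were in the table, and all 10 passed the filter on low counts, Slc26a3 only through the groups treated with JTE013. The set was drawn up with the level of Slc26a3 under JTE013 already known, so values from that contrast are given as a description.

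RNA was sequenced from 15 libraries in 5 groups of 3, all of strain C57/Bl6J and all taken at 14.5 days post coitum (dpc). Pancreata labelled wt or S1pr2 null were lysed directly, and S1pr2 is a receptor for the signalling lipid sphingosine-1-phosphate. The remaining groups were wild-type explants of the dorsal bud, kept for 2 days in serum-free air-liquid interface (ALI) culture. They received standard medium (control), the S1pr2 antagonist JTE013 at 15 μM (JTE), or 15 μM JTE013 with 50 ng/ml connective tissue growth factor (JTE with CTGF). Controls were given solvent where appropriate. Up to 3 pancreata were pooled for each library, from pups with the same genotype or from explants given the same treatment. By the methods of the study, the 3 libraries of a group were independent samples.

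Several limits apply to all results. The null allele, S1pr2 tm1Rlp, was made by insertion of a Neo cassette into the gene. Yet S1pr2 reads were more numerous in the libraries labelled S1pr2 null (1486, 1368 and 1609) than in wt (858, 796 and 812). Its log2 fold change was 0.83 ± 0.07 (SE), with an adjusted p of 4.5e-07 in edgeR's quasi-likelihood test. As far as counts per gene show, this goes against the label. Such counts do not show which part of the gene was read or whether protein was made. For protein, the study reports a western blot of null pancreata of the same stage, in which S1pr2 was absent. The group is called "the libraries labelled S1pr2 null" throughout. JTE replicate 3 stood apart from JTE replicates 1 and 2, with a chi-square per gene of 17.2 and 23.2 against 3.01 between those 2. Libraries held 11402804 to 13828737 counted reads, and the biological coefficient of variation was 7.3%.

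Pancreatic ducts carry digestive enzymes to the gut in an alkaline fluid. Duct cells take up bicarbonate through the basolateral cotransporter Slc4a4 or make it with cytosolic carbonic anhydrases such as Car2. They pass it into the lumen through the chloride and bicarbonate channel Cftr, coupled to the apical exchangers Slc26a3 and Slc26a6. Spp1 (osteopontin) is a secreted phosphoprotein, Muc1 a membrane mucin of apical surfaces, Krt19 and Krt7 are keratins of simple epithelia, and Bicc1 is an RNA-binding protein whose loss gives cystic ducts and kidneys. Slc26a3 is best known as the chloride and bicarbonate exchanger of the colon.

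Promoter sequences were available for 7 of the 10 genes from RefSeq (build GRCm38.p6), and none was given for Car2, Krt19 and Bicc1. The 250 bases upstream of the start are printed for both exchangers, whose patterns over the groups differed, and for the channel Cftr. These genes lie on the plus strand, and the sequences are chr12:31437969-31438218, chr9:108853793-108854042 and chr6:18170437-18170686. Capitals mark matches on either strand to the motifs searched.
Slc26a3: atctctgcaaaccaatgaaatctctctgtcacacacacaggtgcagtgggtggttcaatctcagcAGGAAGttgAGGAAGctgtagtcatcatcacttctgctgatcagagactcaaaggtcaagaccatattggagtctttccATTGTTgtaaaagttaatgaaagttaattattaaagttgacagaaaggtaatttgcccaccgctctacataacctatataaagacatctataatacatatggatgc
Slc26a6: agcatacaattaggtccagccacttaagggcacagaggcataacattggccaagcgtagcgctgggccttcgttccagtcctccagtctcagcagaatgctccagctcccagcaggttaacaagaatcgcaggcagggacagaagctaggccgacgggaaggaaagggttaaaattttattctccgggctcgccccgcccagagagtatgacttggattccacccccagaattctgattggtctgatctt
Cftr: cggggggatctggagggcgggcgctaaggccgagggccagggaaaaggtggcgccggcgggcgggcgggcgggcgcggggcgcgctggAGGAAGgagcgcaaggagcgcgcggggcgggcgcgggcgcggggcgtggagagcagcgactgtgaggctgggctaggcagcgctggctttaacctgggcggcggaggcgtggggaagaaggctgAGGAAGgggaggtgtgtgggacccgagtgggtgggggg
The motifs were TGATGNAA (an ATF4 composite element), CATTCC (TEAD), ATTGAT (ONECUT), AACAAT (SOX), AGGAAG (ETS) and TGACGTCA (cAMP response element), searched on both strands. The Slc26a3 sequence held AGGAAG at 185 to 180 and 176 to 171 bases upstream, letters found in 29.5% of 32851 mouse promoters of this length, and AACAAT on the minus strand, found in 9.42%. The Cftr sequence held AGGAAG at 162 to 157 and at 38 to 33 bases upstream and none of the other motifs. No motif of the list was in the Slc26a6 sequence. The Cftr sequence had a GC content of 76.4% and 30 CpG dinucleotides, against 38.8% and 1 for Slc26a3 and 53.2% and 9 for Slc26a6. A match is a run of letters only, and the RefSeq start of Slc26a3 lies 47348 bases inside the gene model of the count table.

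Slc26a3 (ENSMUSG00000001225, mm10 chr12:31390871-31473917) was near 0 in every library without JTE013. It had 1, 2 and 0 reads in wt, 1, 1 and 1 in the libraries labelled S1pr2 null, and 1, 0 and 1 in control. In JTE it had 249, 246 and 157 reads, and in JTE with CTGF 147, 118 and 145. The 6 libraries with JTE013 and the 9 without it did not overlap. The mean normalised read count, which is the count scaled to a common library size, was 220 ± 64.5 (SD, n = 3) in JTE and 158 ± 20.2 in JTE with CTGF. Against a floor of 3 reads per control library, which is a normalised count of 3.11, the mean of Slc26a3 was at least 70.8-fold higher in JTE. In JTE with CTGF the mean was at least 50.9-fold higher. These are the values for which the gene was chosen and they carry no test. It was at or under the floor in wt and in the libraries labelled S1pr2 null, so no fold is given for that comparison. These are whole-tissue libraries, in which fewer cells of a type and less RNA per cell cannot be told apart.

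**Figure D1:**
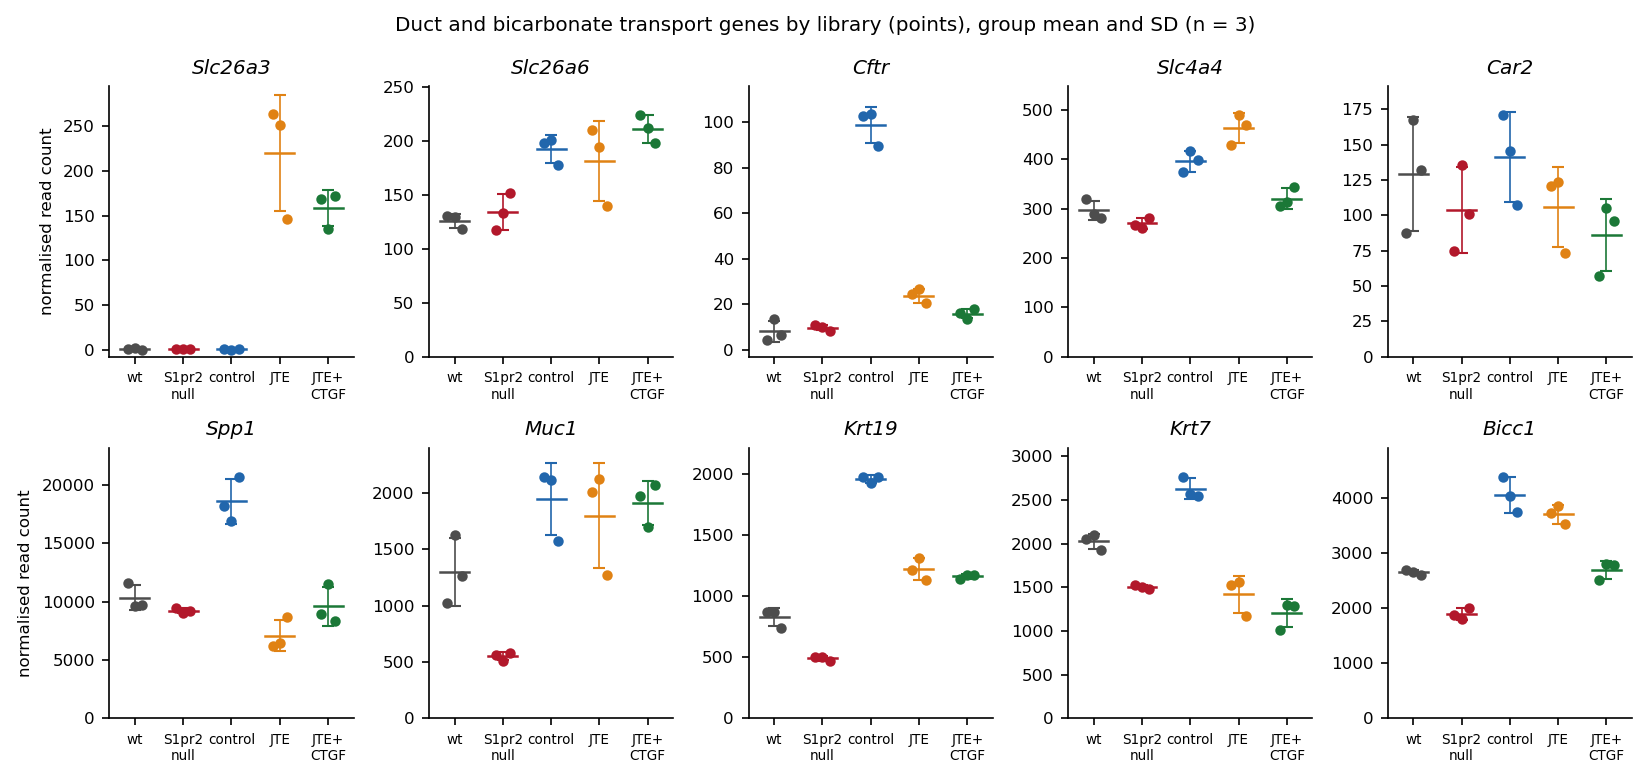
Normalised read count (vertical axis, linear from 0) of each of the 10 genes in the 15 libraries, by group on the horizontal axis. Points are libraries, and horizontal bars and whiskers are the mean and SD of 3 libraries. Slc26a3 was at or near 0 outside the groups with JTE013, whereas Cftr was high only in the 3 control libraries, at 89.6 to 103.6.

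None of the other genes of the set was limited to the groups with JTE013. Among the genes most like Slc26a3, by Pearson's r of log2 CPM (reads scaled to library size) over the 15 libraries, were Lonp1 (r = 0.994), St3gal3 (0.991), Hspa9 (0.989) and Slc7a5 (0.989). Lonp1 is a mitochondrial protease, Hspa9 a mitochondrial chaperone and Slc7a5 an amino acid transporter. Unlike Slc26a3, they were well expressed without the drug. Lonp1 had a mean normalised read count of 2157 in control, 8293 in JTE and 7754 in JTE with CTGF. Slc7a5 had 2356, 8066 and 6893. The 15 libraries fall into 2 sets, with and without JTE013, and any gene that differs between these sets will correlate in this way.

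Slc26a3 also stood apart from its neighbours on the chromosome. Of the 10 other genes of the table within 250 kb of it, 7 were tested and 3 had at most 4 reads in any library. Among these 3 was Slc26a4 (pendrin), the anion exchanger gene next to Cbll1. In JTE against control 4 of the 7 were higher in the edgeR test, where 25.9% of all genes tested were higher. Bcap29 differed by 0.71 ± 0.12 (log2, SE, adjusted p = 0.000145), Dus4l by 0.64 ± 0.13 (0.000374), Lamb1 by 0.40 ± 0.06 (3.06e-05) and Cog5 by 0.30 ± 0.07 (0.00233). Cbll1, Dld and Gpr22 were not called, with log2 fold changes of 0.15, 0.12 and 0.69.

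**Figure D2:**
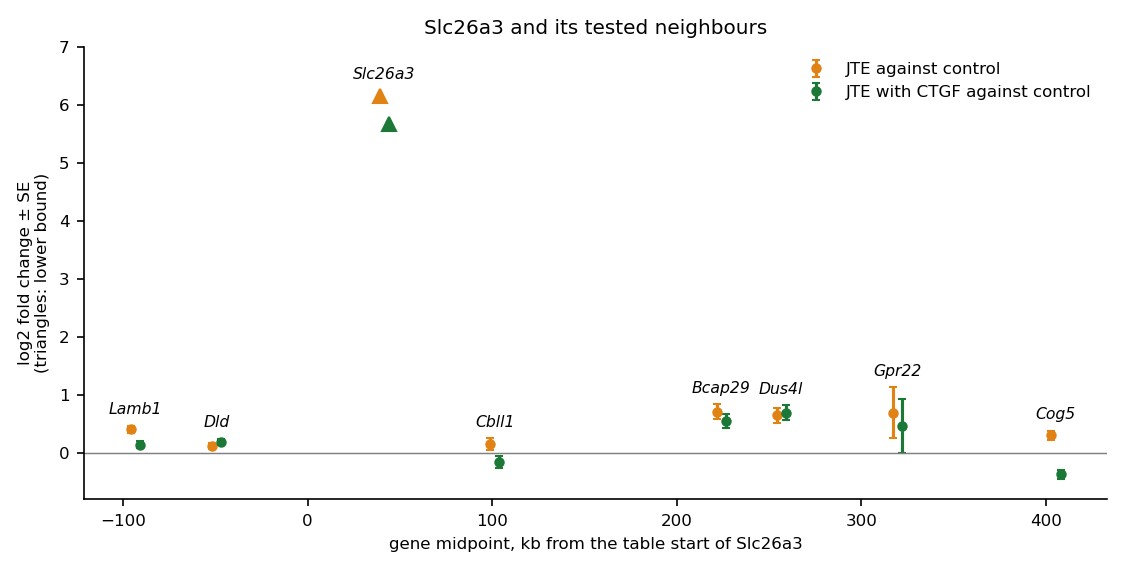
log2 fold change (vertical axis) of Slc26a3 and its 7 tested neighbours against control, by the distance of each gene's midpoint from the table start of Slc26a3 in kb (horizontal axis). Circles and whiskers are fitted values and SE, triangles are lower bounds for Slc26a3. In JTE every neighbour was at or below 0.71, while the bound for Slc26a3 was a 70.8-fold difference.

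Intestine was considered as another cell type that expresses Slc26a3. The summed level of 14 intestinal epithelium markers was 34.7 to 41.3 CPM in control, 12.5 to 20.1 in JTE and 14.5 to 17.8 in JTE with CTGF. Among them Alpi, Fabp2, Sis and Apoa4 had at most 1 read in any library, and Cdx1 and Cdx2 at most 7. The highest Muc2 count was 2 in control, 10 in JTE and 8 in JTE with CTGF, and that of Cdx2 was 2, 7 and 3. Guca2a (14, 2 and 2) and Fabp1 (4, 0 and 1) went the other way. Of the 5 markers with enough reads to test in JTE against control, Vil1 (−2.54 ± 0.15, log2, SE), Guca2b (−4.01 ± 0.66) and Gpa33 (−2.27 ± 0.48) fell, Lgals4 rose by 1.00 ± 0.35 and Cdhr5 was not called.

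Slc26a6 (chr9:108854037-108912558), the exchanger found in most secretory epithelia, was expressed in all groups. It had 187, 200 and 171 reads in control, 199, 190 and 150 in JTE and 196, 185 and 167 in JTE with CTGF, so that the 3 explant groups overlapped. Its log2 fold change was −0.09 ± 0.13 (SE) in JTE and 0.13 ± 0.13 in JTE with CTGF, both against control. It had 145, 135 and 126 reads in wt and 120, 144 and 180 in the libraries labelled S1pr2 null. For that comparison its log2 fold change was 0.09, with a 95% interval from −0.20 to 0.39 and an adjusted p of 0.672.

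Cftr (chr6:18170687-18322768) was high in the control explants alone. It had 5, 14 and 7 reads in wt, 97, 103 and 86 in control, 23, 26 and 22 in JTE and 14, 12 and 15 in JTE with CTGF. No library of the other groups came near the lowest control library. In control against wt Cftr rose by 3.59 ± 0.25 (log2, SE), or 12.03-fold (adjusted p = 3.01e-09). Its log2 fold change was −2.05 ± 0.21 in JTE against control and −2.63 ± 0.23 in JTE with CTGF against control, which are 4.15-fold and 6.20-fold lower. The libraries labelled S1pr2 null had 11, 11 and 10 reads and overlapped wt, with a log2 fold change of 0.26 and a wide interval from −0.46 to 0.99. Cftr shares 129 exonic bases with the antisense gene Gm15592, and strand use in counting was not stated.

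Slc4a4 (chr5:88886818-89239653), the sodium bicarbonate cotransporter, was expressed in all groups. Its mean normalised count ran from 270 in the libraries labelled S1pr2 null to 462 in JTE. It had 352, 414 and 382 reads in control, 405, 479 and 505 in JTE and 266, 273 and 290 in JTE with CTGF. Normalised counts were higher in every JTE library than in any control library, by 0.22 ± 0.07 on the log2 scale. That difference passed the threshold in edgeR but not in DESeq2, nor without control replicate 1 or JTE replicate 2. Since this contrast chose the set, nothing is read from the call. With CTGF added the normalised counts were below both groups, at 320 ± 20.7 against 462 ± 31.0 in JTE and 396 ± 21.3 in control. Against JTE, Slc4a4 fell by 0.53 ± 0.08 (adjusted p = 6.49e-05) in JTE with CTGF. In the libraries labelled S1pr2 null it had 272, 283 and 335 reads against 354, 302 and 300 in wt and was not called (−0.13 ± 0.08, adjusted p = 0.223).

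Car2 (chr3:14886426-14900769) varied widely between replicates. It had 97, 175 and 141 reads in wt, 76, 147 and 120 in the libraries labelled S1pr2 null, 161, 145 and 103 in control, 114, 121 and 79 in JTE and 50, 92 and 81 in JTE with CTGF. It was not called in the libraries labelled S1pr2 null against wt (−0.31, 95% interval −0.88 to 0.26) or in control against wt (0.13, −0.43 to 0.70). In JTE with CTGF against control it was lower by 0.71 ± 0.29, with no overlap of the normalised counts, a value that lay between −0.89 and −0.49 when single libraries were left out. It no longer passed the threshold without control replicate 1 or 2 or without JTE with CTGF replicate 1 or 3. Nothing is read from that call, since the control libraries are shared with the contrast that chose the set.

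Spp1 (chr5:104435118-104441050) was the most abundant gene of the set in every group. It had 17130, 16813 and 19906 reads in control against 5844, 6315 and 9320 in JTE and 7853, 10050 and 7063 in JTE with CTGF. Both treated groups lay wholly below control, by 2.62-fold in JTE (log2 −1.39 ± 0.13) and 1.93-fold in JTE with CTGF (−0.95 ± 0.13). Compared with wt, which had 12848, 10078 and 10389 reads, Spp1 rose in control by 0.85 ± 0.13 (adjusted p = 1.86e-05). In JTE with CTGF against JTE it rose by 0.44 ± 0.13 (adjusted p = 0.0137), although the 2 groups overlapped. That call was lost when JTE replicate 1 (0.35, adjusted p = 0.0693), JTE replicate 2 (0.37, 0.0613) or JTE with CTGF replicate 2 (0.29, 0.0936) was left out. Spp1 was not called in the libraries labelled S1pr2 null (−0.16 ± 0.12, adjusted p = 0.378). Of the 50-base words of its transcripts 11.6% also occur in another annotated gene, so that some reads may have been lost.

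Macrophages can also express Spp1, and their markers moved in the same direction. The summed level of 9 macrophage markers was 326 to 348 CPM in control, 99.5 to 118 in JTE and 78.4 to 119 in JTE with CTGF. All 9 fell in JTE against control, among them C1qa by 2.39 ± 0.16 and Csf1r by 3.14 ± 0.16 (log2, SE). Their sum was 189 to 197 CPM in wt and 200 to 228 in the libraries labelled S1pr2 null. Their part in the level of Spp1 was not tested.

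Muc1 (chr3:89229057-89233381) gave the largest difference of the set between the libraries labelled S1pr2 null and wt. It had 576, 553 and 684 reads there against 1138, 1693 and 1341 in wt, and the groups did not overlap. Muc1 fell by 1.24 ± 0.18 on the log2 scale, or 2.36-fold (adjusted p = 0.000128). JTE showed no such separation, with 1894, 2079 and 1362 reads against 2019, 2106 and 1511 in control and a log2 fold change of −0.12 (95% interval −0.48 to 0.25). JTE with CTGF, with 1726, 1479 and 1744 reads, also overlapped control (−0.03, −0.39 to 0.34). Muc1 rose in control against wt by 0.58 ± 0.17 (adjusted p = 0.00843), with overlapping groups, and without wt replicate 1 the call was lost (0.43, adjusted p = 0.0544).

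Krt19 (chr11:100140810-100148665, minus strand) varied little between replicates. Its reads numbered 1862, 1917 and 1902 in control, 1151, 1286 and 1223 in JTE and 999, 1023 and 991 in JTE with CTGF. Both treated groups lay below control, by 0.68 ± 0.06 and 0.75 ± 0.06 on the log2 scale. The difference between these 2 groups was not called (−0.07, 95% interval −0.21 to 0.06, adjusted p = 0.424). In the libraries labelled S1pr2 null Krt19 had 510, 543 and 558 reads against 972, 911 and 792 in wt, and fell by 0.76 ± 0.07 (adjusted p = 7.7e-07). From wt to control it rose 2.36-fold (1.24 ± 0.06, adjusted p = 6.76e-11).

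Krt7 (chr15:101411043-101430313) fell in the libraries labelled S1pr2 null, with 1551, 1631 and 1763 reads against 2277, 2190 and 2057 in wt (−0.43 ± 0.09, adjusted p = 0.00295). It had 2607, 2559 and 2449 reads in control, 1443, 1524 and 1258 in JTE and 888, 1137 and 1089 in JTE with CTGF. The differences from control were −0.89 ± 0.09 and −1.13 ± 0.10. JTE with CTGF against JTE was not called (−0.24 ± 0.10, adjusted p = 0.0769), but without JTE replicate 3 it was (−0.32, adjusted p = 0.0072).

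Bicc1 (chr10:70922832-71159700, minus strand) had 2987, 2783 and 2778 reads in wt and 1918, 1952 and 2392 in the libraries labelled S1pr2 null. The normalised counts of the groups did not overlap, and Bicc1 fell by 0.48 ± 0.06 (adjusted p = 4.32e-05). With 4136, 4019 and 3589 reads in control and 3531, 3782 and 3790 in JTE, those groups overlapped (−0.13 ± 0.06). CTGF separated from both, with 2197, 2447 and 2350 reads. Against JTE, Bicc1 fell by 0.46 ± 0.06 (adjusted p = 4.94e-05) in JTE with CTGF. Bicc1 shares 344 exonic bases with the antisense gene 4930533K18Rik.

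Mesothelium, the surface layer of the organ, also makes keratins and mucins. The summed level of its 7 markers was 209 to 216 CPM in wt, 222 to 235 in the libraries labelled S1pr2 null, 66.9 to 96.7 in control, 38.4 to 67.1 in JTE and 37.7 to 54.9 in JTE with CTGF. In the libraries labelled S1pr2 null against wt 0 of the 7 were called in the edgeR test, with a median log2 fold change of −0.08. Wt1 (0.42 ± 0.16, adjusted p = 0.0585) and Bnc1 (0.52 ± 0.19, 0.056) were higher in every library labelled S1pr2 null than in wt. Upk3b was lower in every one (−0.16 ± 0.12, 0.327). Msln (−0.87 ± 0.51), Lrrn4 (−0.12 ± 0.20), Gpm6a (−0.08 ± 0.17) and Upk1b (0.12 ± 0.15) overlapped wt. The part of these cells in the levels of Krt19, Krt7 and Muc1 was not tested.

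Slc26a3 was too low in the directly taken pancreata to be called. Of the other 9 genes, 0 were higher and 4 lower than wt in the libraries labelled S1pr2 null (Muc1, Krt19, Bicc1 and Krt7), where 25.8% of all 16245 genes tested were called, 12.6% higher and 13.3% lower. All 4 were duct or epithelial markers. The median log2 fold change of the 9 was −0.31, beside −0.01 over all genes. Other epithelial genes moved with them, since Cdh1 (E-cadherin) fell by 0.62 ± 0.07 and Epcam by 0.35 ± 0.07. The sum of 12 acinar markers was 2267 to 2463 CPM there and 6421 to 10830 CPM in wt, and that of 12 endocrine markers 1187 to 1338 against 2281 to 2532 CPM. The part of a change in cell makeup was not tested.

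Slc26a3 is left out of the counts for the comparisons with control, since its rise chose the set. In JTE against control, 1 of the other 9 genes was higher (Slc4a4) and 4 were lower (Cftr, Spp1, Krt7, Krt19) at the same threshold. Over all genes 52.2% were called, 25.9% higher and 26.2% lower, and since this contrast chose the set nothing is read from the count. The general epithelial gene Cdh1 was not called (0.11 ± 0.07, adjusted p = 0.215), and Epcam fell by 0.57 ± 0.07. In JTE with CTGF, set against the same control libraries, 0 of these 9 genes were higher and 7 were lower, with 61.1% of all genes called. Nothing is read from that count either. JTE replicate 3 was the lowest JTE library by normalised count for Slc26a3, Slc26a6, Cftr, Car2, Muc1, Krt19, Krt7 and Bicc1, and the highest for Spp1. Without it the bound for Slc26a3 was a 82.7-fold difference.

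A stricter criterion, which adds limits on fold and count, was met in the libraries labelled S1pr2 null against wt by 2 genes of the set (Muc1 and Krt19), where 3.00% of all genes tested met it. It was met by 0 in JTE with CTGF against JTE (1.74% of all genes) and by 2 in control against wt (Spp1 and Krt19, 12.1%). The comparisons with control are given as a description from which nothing is read, with Slc26a3 left out. There 2 genes met it in JTE (Spp1 and Krt7, with 8.25% of all genes) and 3 in JTE with CTGF (these and Krt19, with 11.8%). Under it Cftr was never counted as regulated, since its mean normalised count did not pass 100 in any group.

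In JTE with CTGF against JTE, which shows what CTGF added, 1 of 9 genes rose (Spp1) and 2 fell (Slc4a4, Bicc1), where 30.4% of all genes were called. Slc26a3, left out of that count, was lower by 0.47 ± 0.19 on the log2 scale with overlapping libraries, and by 0.66 without JTE replicate 3. Cftr was lower by 0.58 in the fit without passing the test (95% interval −1.16 to 0.00022, adjusted p = 0.123). Its normalised count was below that of every JTE library in all 3 libraries with CTGF. Ccn2, the gene that encodes CTGF, fell in JTE against control (−1.88 ± 0.22, adjusted p = 2.08e-06). When CTGF was added it was not called, with a wide interval (−0.38 ± 0.26, 95% interval −0.94 to 0.18, adjusted p = 0.306).

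In control against wt 8 of 9 genes rose and Car2 was not called, where 57.8% of all genes were called and 28.5% were higher. Besides those given above, Slc26a6 rose by 0.61 ± 0.14 (adjusted p = 0.000953), Slc4a4 by 0.42 ± 0.08 (0.000165), Krt7 by 0.38 ± 0.09 (0.0023) and Bicc1 by 0.61 ± 0.06 (3.6e-07). Control explants and wt pancreata differ in culture, in age and in the part dissected, which cannot be told apart. The control libraries are also part of the contrast that chose the set. Erythroid markers summed to 752 to 830 CPM in wt and 8.9 to 18.1 CPM in control, and acinar markers to 6421 to 10830 and 47280 to 63500 CPM. Cdh1 and Epcam were not called.

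**Figure D3:**
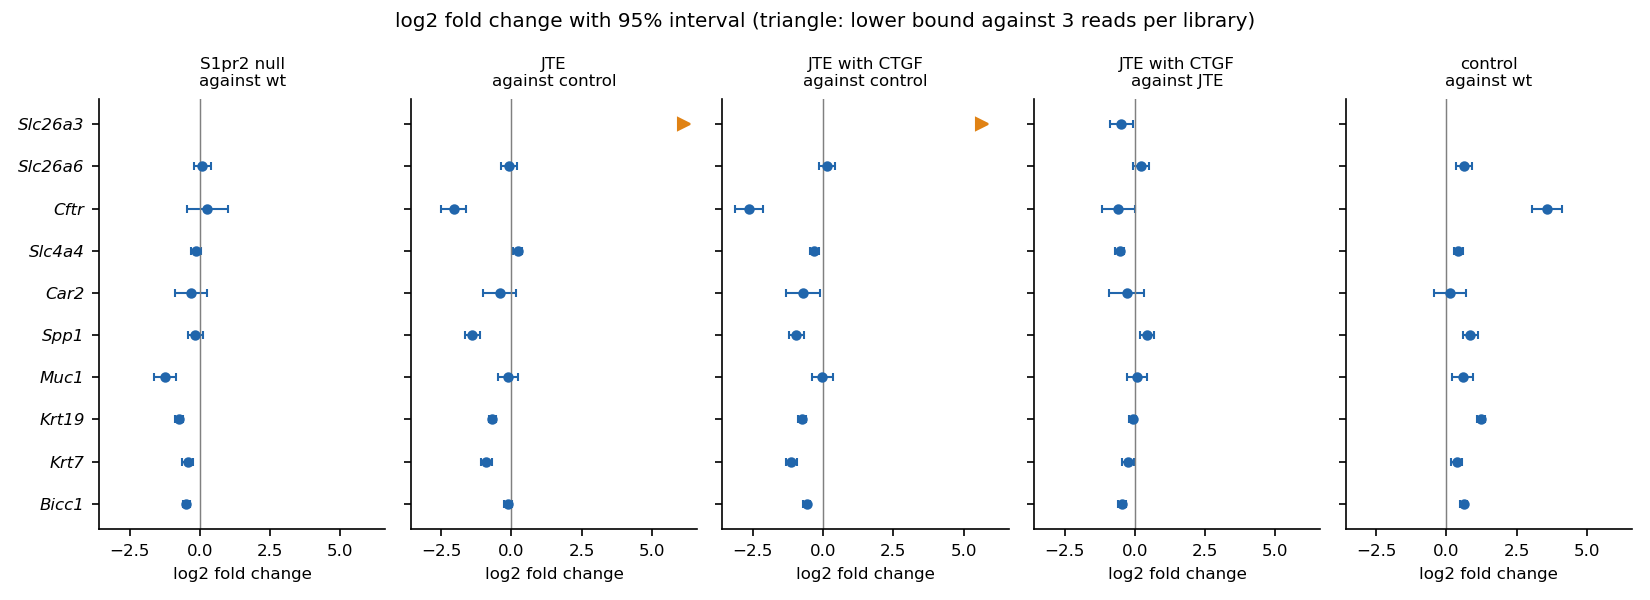
Fitted log2 fold change with its 95% interval (horizontal axis) for the 10 genes (vertical axis) in each of the 5 comparisons, with triangles for the lower bounds of Slc26a3. No point is drawn for Slc26a3 where both groups were at or under 3 reads per library. Cftr, Spp1, Krt19 and Krt7 lay left of 0 in both comparisons with control and right of it in control against wt. These comparisons share the same control libraries, so the opposite signs are not independent of each other.

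Levels of different genes were compared as TPM, the count divided by gene length and scaled to a common total. Spp1 led in every group, at 1441 ± 175 TPM (SD, n = 3) in wt, 2041 ± 316 in control and 780 ± 200 in JTE. Muc1, Krt19, Bicc1 and Krt7 followed with 27.0 to 191 TPM, and Slc26a6, Car2 and Slc4a4 with 4.68 to 16.5 TPM. Slc26a6 and Car2 overlapped in wt, in the libraries labelled S1pr2 null, in control and in JTE. The last places were exchanged under JTE013. In control Cftr had 2.29 ± 0.10 TPM and Slc26a3 0.020 ± 0.017, whereas in JTE Slc26a3 had 6.15 ± 1.55 and Cftr 0.55 ± 0.04. In JTE the ranges of Slc26a3 (4.40 to 7.36 TPM) and Slc4a4 (7.05 to 8.34) overlapped.

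Counts over related lists are read against all genes tested. In JTE against control 25.9% of all genes rose and 26.2% fell, in the libraries labelled S1pr2 null against wt 12.6% and 13.3%, in control against wt 28.5% and 29.3%, and in JTE with CTGF against JTE 13.6% and 16.8%. No difference between lists was tested.

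Of 7 other tested members of the SLC26 family, 1 rose and 2 fell in JTE against control, where 52.2% of all genes were called. Slc26a1, a sulfate transporter, fell by 2.45 ± 0.17 (log2, SE, adjusted p = 5.12e-09) and Slc26a9, an epithelial chloride transporter, by 2.09 ± 0.23 (9.7e-07), while Slc26a11 rose by 0.48 ± 0.14 (0.00826). Slc26a1 had risen in control against wt by 3.57 ± 0.18 and Slc26a9 by 1.96 ± 0.22. In the libraries labelled S1pr2 null against wt 1 rose, Slc26a7 by 0.63 ± 0.11 (adjusted p = 0.000422), and 1 fell, Slc26a9 by 1.13 ± 0.28 (0.00686).

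Of 7 other tested SLC4 genes 3 rose in JTE against control and 0 fell, namely the bicarbonate cotransporter Slc4a7 (0.35 ± 0.08, adjusted p = 0.00171) and the anion exchangers Slc4a3 (0.30 ± 0.06) and Slc4a2 (0.22 ± 0.06). With CTGF added Slc4a8 fell by 1.47 ± 0.19 and Slc4a7 by 0.43 ± 0.08 against JTE (adjusted p = 2.27e-05 and 0.00088). Both this count and that of the carbonic anhydrases, of which 1 rose and 2 fell among 11 others, stand beside the same 52.2%. The hypoxia-inducible membrane enzyme Car9 fell by 2.98 ± 0.22 in JTE (adjusted p = 1.13e-08). The intracellular Car8, which lacks enzyme activity, rose by 0.44 ± 0.17 (0.0357). In the libraries labelled S1pr2 null against wt 3 carbonic anhydrases rose and 2 fell. Car11 rose by 0.96 ± 0.16 (adjusted p = 0.000313), and so did Car12 by 1.28 ± 0.25 (0.00125) and Car14 by 0.44 ± 0.13 (0.0153), both named after their values were seen. Car9 fell by 1.57 ± 0.17 (5.22e-06) and Car8 by 0.76 ± 0.18 (0.00438).

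Of 25 tested ion, water and secretin genes of ducts 8 rose and 11 fell in JTE against control, where 25.9% of all genes rose and 26.2% fell. The water channels Aqp1 and Aqp4 fell by 3.16 ± 0.14 and 2.89 ± 0.16 (adjusted p = 1.82e-11 and 3.66e-10), and the Na,K-ATPase regulator Fxyd3 by 2.06 ± 0.15. Sctr, the secretin receptor, which was named after its values were seen, rose from a mean normalised count of 18.9 ± 5.75 to 94.96 ± 21.3 (2.31 ± 0.24, adjusted p = 7.85e-07). In the libraries labelled S1pr2 null 1 gene of the list rose and 10 fell, among them the potassium channel Kcnq1 (−1.29 ± 0.16) and Aqp4 (−0.88 ± 0.14). From wt to control 15 rose and 2 fell, with the chloride cotransporter Slc12a2 up by 1.72 ± 0.05 (adjusted p = 1.38e-13). With CTGF added to JTE 0 rose and 5 fell, where 30.4% of all genes were called, among them the kinase Wnk1 (−0.60 ± 0.07) and the chloride channel Ano1 (−0.43 ± 0.12).

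Among 12 transcription factors of duct cells 2 rose and 3 fell in JTE against control, with 52.2% of all genes called. Ehf fell by 1.46 ± 0.07 (adjusted p = 1.08e-10), Sox9 by 0.70 ± 0.09 (9.64e-06) and Elf3 by 0.58 ± 0.09. CTGF on top of JTE gave 1 higher and 6 lower, and Onecut1 fell 3.02-fold (−1.59 ± 0.13, adjusted p = 3.24e-07).

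Of 14 other duct keratins, mucins and surface genes 0 rose and 12 fell in JTE against control, where 26.2% of all genes fell, with a median log2 fold change of −1.11 beside 0.00 over all genes. Among them were Krt23 (−3.57 ± 0.22, adjusted p = 1.51e-09), Krt20 (−3.45 ± 0.20) and the tetraspanin Tspan8 (−3.39 ± 0.28). In the libraries labelled S1pr2 null 0 rose and 8 fell, among them Krt18 (−0.66 ± 0.11, adjusted p = 0.000432). In control against wt 10 rose and 2 fell, and Krt20 rose by 3.78 ± 0.20 and the secreted trefoil factor Tff2 by 4.52 ± 0.35. Of the 11 cilium and cyst genes 8 rose and 1 fell in JTE against control, where 25.9% of all genes rose and 26.2% fell. Tulp3, a ciliary trafficking factor, rose by 0.74 ± 0.08 and Pkhd1, the gene of recessive polycystic kidney disease, by 0.69 ± 0.10. With CTGF added Pkhd1 fell by 0.92 ± 0.10 against JTE (adjusted p = 5.64e-06), and 0 of the 11 rose and 5 fell, beside 13.6% and 16.8% of all genes.

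**Figure D4:**
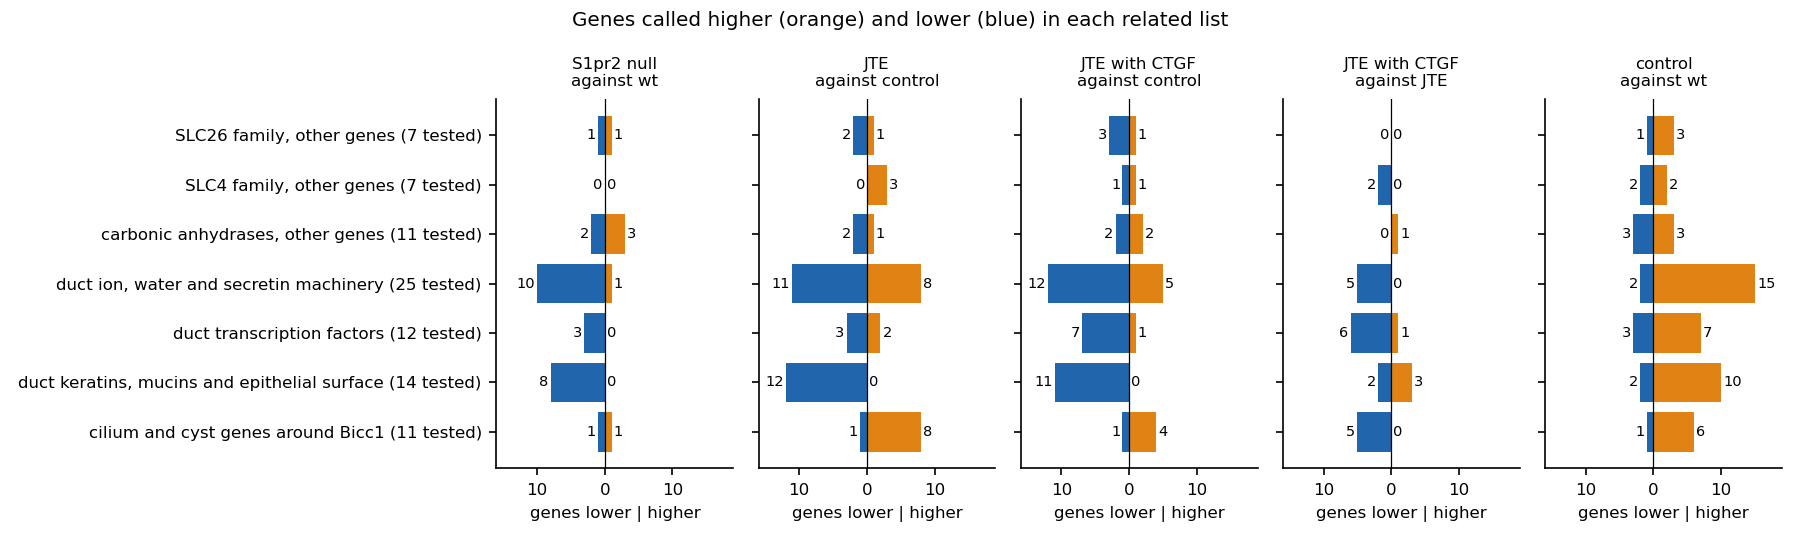
Number of genes called higher (right, orange) and lower (left, blue) at an adjusted p below 0.05 in edgeR, for 7 related gene lists (vertical axis) in each of the 5 comparisons. The keratin, mucin and surface list had 12 of 14 genes lower in JTE against control and 10 of 14 higher in control against wt. Both counts rest on the same control libraries.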

How the data were processed

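Poly(A) RNA of embryonic mouse pancreas was sequenced from 15 strand-specific libraries. The authors aligned single-end reads to mm10 with GSNAP. The deposited table holds raw counts of reads for each Ensembl gene, made with featureCounts 1.4.6. Strand use in counting was not stated in the sources used here. Groups and replicate numbers came from the sample titles. Symbols came from GENCODE M21, found for 24750 IDs (97.9%). Slc9a3 and Muc16 were not analysed here.

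Tests on the counts used the quasi-likelihood method of edgeR 4.0.16 in R 4.3.3, with TMM factors, filterByExpr, 1 coefficient per group and all 15 libraries in one fit. Benjamini-Hochberg adjustment covered 16245 genes, and a gene was called at an adjusted p below 0.05. The criterion of the study (protein-coding, fold below 0.6 or above 1.6, adjusted p up to 0.1 and over 100 normalised reads on average in at least 1 group) was an alternative, as were DESeq2 1.42.0, other scalings, no filter, a replicate block and leaving out single libraries. TPM used the gene length of the table. Folds against groups at or under 3 reads per library are lower bounds, and that floor covers counting error only. The 95% intervals were made from the SE of the fit, which takes in the spread between replicate libraries. The fit was tested on simulated data. Plots used Python 3.11.15 with matplotlib 3.10.9.

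The genes and lists were chosen with earlier results of these data known. Slc26a3 in any comparison, and all 10 genes in the comparisons with JTE libraries against control, are described without a p, since these libraries chose the set or share its controls. Beside the 10, the text names from each related list the 3 called genes with the largest log2 fold change (or fewer of these). Those genes had over 100 normalised reads on average in at least 1 group. Also named are genes among the 5 most correlated with Slc26a3, its neighbours and markers of other cell types. Some genes that fall under these rules are not reported here.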

Additional observations from a re-analysis of the deposited data

How the results depend on the processing

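The number of the 10 genes called was within 1.5 times that of the fit described above under DESeq2, RLE or upper-quartile factors, no filter on low counts, the 6 libraries of a comparison alone and each library left out. Slc26a3, which is only described, is counted in these numbers where JTE libraries are set against control. Under the criterion of the study it was 2 in the libraries labelled S1pr2 null against wt, 3 in JTE against control, 4 in JTE with CTGF against control, 0 in JTE with CTGF against JTE and 2 in control against wt. The order by level depended on length. By CPM in place of TPM only 3 of the 10 genes kept their rank in wt, 5 in the libraries labelled S1pr2 null, 3 in control, 2 in JTE and 2 in JTE with CTGF. Of 966 recomputed fold changes of the 10 genes 953 kept their direction and side of the threshold, or moved by less than the replicate spread. The direction turned only for genes that were not called, when single libraries were left out. Muc1 then lay between −0.25 and 0.085 in JTE and between −0.16 and 0.055 in JTE with CTGF, both against control, and Slc26a6 between −0.21 and 0.070 in JTE against control. Cftr lay between −0.032 and 0.81 and Slc26a6 between −0.0064 and 0.18 in the libraries labelled S1pr2 null against wt, Car2 between −0.086 and 0.36 in control against wt, and Muc1 between −0.075 and 0.23 in JTE with CTGF against JTE. The rise of Spp1 with CTGF missed the threshold with the 6 libraries of its comparison alone (0.45, adjusted p = 0.0528). Without single libraries the bound for Slc26a3 lay between 64.0 and 82.7 in JTE and between 48.8 and 54.7 in JTE with CTGF.

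Groups share the replicate numbers 1 to 3, but no label says that a number marks a shared litter or day, and deviations of same-numbered libraries correlated with r between −0.10 and 0.25. With the replicate block 4, 6, 8, 3 and 8 of the genes were called in the 5 comparisons in the order above, the numbers found without it. These too count Slc26a3 where JTE libraries are set against control. Depth limits Slc26a3 outside JTE013 and Cftr in the directly taken pancreata, where 0 to 14 reads were counted.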
